A study of Rattus rattus with 12 samples.

Results

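Among the transcripts of rat perigonadal fat, 436 were chosen because their level was at least 2 times that of untreated control fat at day 3 after an injection of ice slurry and back near the control level at day 14. They were 2.99% of the 14560 transcripts that could have been chosen, out of 46726 that were listed for each library. To be eligible, a transcript needed more than 3 reads in all 12 libraries, a mean of at least 5 TPM in its highest group and a place outside the 100 most abundant transcripts of control fat. TPM is the share of a library's RNA molecules given to a transcript, corrected for its length and scaled to a fixed total that is equal in all libraries. The ratio used throughout is the group mean of TPM + 1 over that of the control. Members had a ratio of at least 2 at day 3, all 3 day 3 libraries above all 3 control libraries, and a ratio between 0.67 and 1.5 at day 14. These values chose the members, so the levels at day 3 and day 14 are given as a description with no test.

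RNA-sequencing was performed on perigonadal fat, a visceral fat depot, of male Sprague-Dawley rats, 8 weeks old and 200 g when obtained, which had received a diet with 60% of its energy from fat for 9 weeks before treatment and throughout. The groups were untreated control fat (labelled Control) and fat taken 1, 3 or 14 days after treatment with injectable ice slurry (3 libraries per group). All groups shared the diet. Slurry is an ice suspension in saline with glycerol, and treated rats received 10 ml of it by injection during open surgery. Only the left or the right depot was injected. Control fat came from the opposite, untreated depot, so that it had no injection of melted solution. The labels do not say which animal gave which library, and they give no day for the control. A control library may thus come from the same rat as a treated one, and the tests used no pairing by animal. The label of the species is Rattus rattus, while the strain is one of Rattus norvegicus. Between 20466915 and 28802360 reads were assigned to transcripts in each library, and the median member had 141 reads in the library where it was lowest.

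Cooling of fat kills adipocytes by cryolipolysis, and the dead cells are cleared by neutrophils and macrophages. In repairing tissue, inflammation is followed by division of stromal, vascular and immune cells and by deposition of new matrix, and many transcripts of this middle phase are transient. The deposited tables give Ensembl transcript identifiers without gene names, and none of the identifiers matched the gene table used here. The genes of the 436 transcripts are therefore not named, their functions and the cell types that express them are not described, and the identity of the tissue was not checked against marker genes. In bulk tissue, a higher level of a transcript in each cell and more cells of the type that holds it cannot be told apart.

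Single libraries stood apart in every group. Replicate 1 of the control was the lowest control library for 261 of the 436 members (52.2% of the eligible transcripts), and the median member had 0.836 times the control mean there (0.92 for the median eligible transcript). For the median member, the level relative to the control mean was 1.38 and 1.57 in replicates 1 and 3 of day 1 but 1.19 in replicate 2 (1.12, 1.2 and 1.04 for the median eligible transcript). At day 3 it was 2.56 and 2.61 in replicates 1 and 3 and 2.21 in replicate 2, which was the lowest day 3 library for 248 members (38.8% of the eligible transcripts), while the median eligible transcript was at 1.18, 1.19 and 1.17. At day 14 it was 1.28 in replicate 1, 0.927 in replicate 2 and 0.81 in replicate 3 (1.13, 1.02 and 1.00 for the median eligible transcript). The spread of the members at day 14 thus ran from above to below the control, and results for day 1 are given with and without single libraries.

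The 436 transcripts together held 7523, 8804 and 9320 TPM in the control libraries 1 to 3. At day 1 their sum was 14391, 10861 and 12838 TPM, and at day 3 it was 23455, 20072 and 24957 TPM. At day 14 it was 11628, 8469 and 7067 TPM. The day 1 libraries all lay above the control libraries and below the day 3 libraries, whereas day 14 overlapped the control, with replicate 1 above and replicate 3 below all control libraries. The mean of the sums was 8549 ± 925 TPM in the control, 12696 ± 1769 at day 1, 22828 ± 2502 at day 3 and 9055 ± 2336 at day 14 (SD, n = 3). As a share of all transcripts, the members held between 0.752% and 0.932% of a control library and between 2.01% and 2.5% of a day 3 library.

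**Figure D1:**
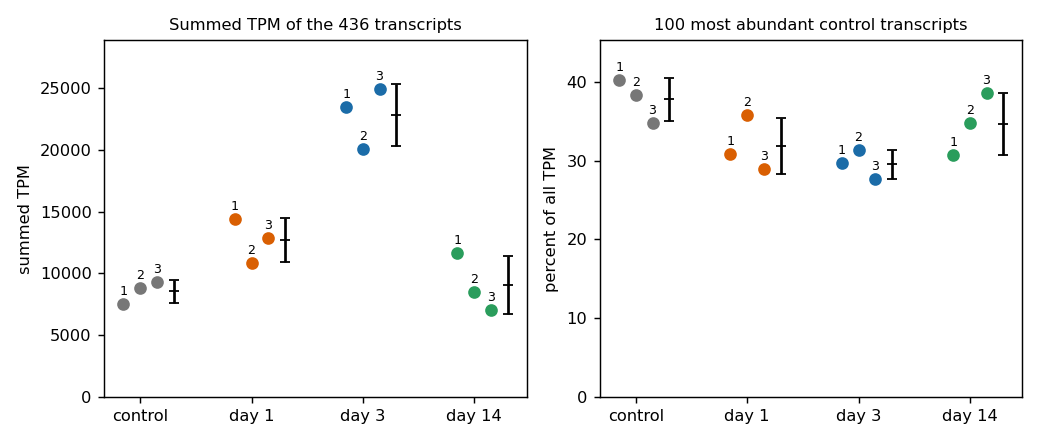
Left, TPM summed over the 436 transcripts in each library (points, with the replicate number above), by group. Right, percent of all TPM held by the 100 most abundant transcripts of control fat, which were not eligible. Bars beside the points are the mean ± SD of 3 libraries. The day 3 sums of 20072 to 24957 TPM lie above those of every other group, and the share of the abundant transcripts is at most 31.4% at day 3 and at least 34.8% in the control.

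TPM values of a library have a fixed sum, so a smaller share of some transcripts raises all others. The 100 most abundant control transcripts held 40.2%, 38.4% and 34.8% of TPM in the control libraries, and 29.7%, 31.4% and 27.7% at day 3. This share came to 30.9%, 35.8% and 28.96% in the day 1 libraries and 30.8%, 34.8% and 38.6% in those of day 14. These transcripts were picked for their control level, which by itself favours a higher share in the control libraries. At day 14, the library with the highest share had the lowest sum of the members. The median ratio of all 14560 eligible transcripts was 1.14 at day 1, 1.19 at day 3 and 1.06 at day 14. Relative to it, the median member was 2.05 times higher at day 3, and 231 of the 436 had a ratio of at least 2 times that of the median eligible transcript. Division of TPM by TMM factors, which scale libraries on the bulk of their transcripts, moved the log2 of the median eligible ratio by -0.12 for day 1, -0.066 for day 3 and -0.054 for day 14. After this scaling, the median ratio of the members at day 3 was 2.34 against 1.14 for all eligible transcripts.

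**Figure D2:**
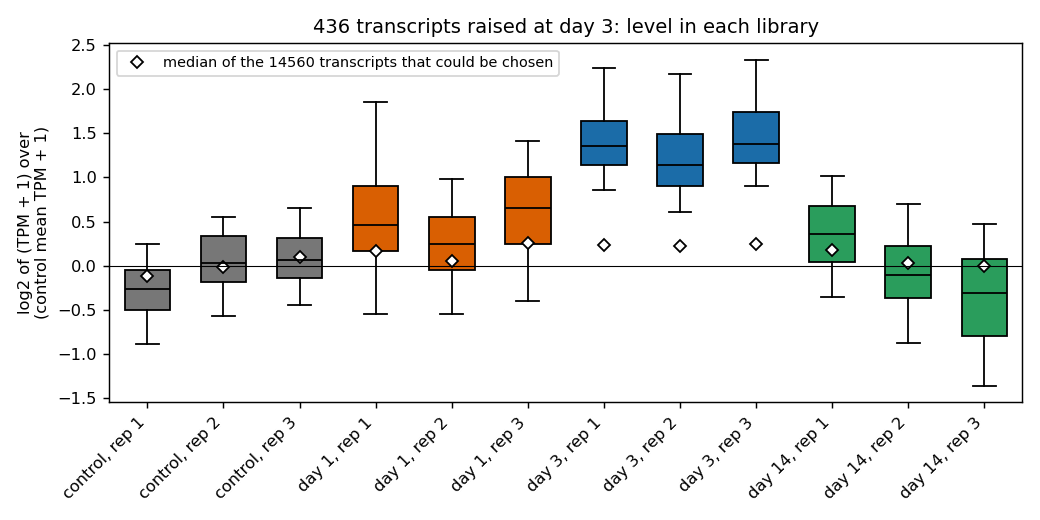
Level of the 436 transcripts in each library, as the log2 of TPM + 1 over the control mean of TPM + 1. Boxes show the quartiles and median over transcripts and whiskers the 5th and 95th percentiles, and diamonds are the median of all 14560 eligible transcripts. The boxes of the 3 day 3 libraries lie above their diamonds by construction, and the day 14 boxes fall from above the control mean in replicate 1 (median ratio 1.28) to below it in replicate 3 (0.81).

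At day 3 the ratio to control was between 2 and 2.5 for 236 members, between 2.5 and 3 for 95, between 3 and 4 for 65 and at least 4 for 40, with a median of 2.44. The limits cut through a continuous range. The member just inside the day 3 limit had a ratio of 2.0003 and the transcript just outside it 1.9999. There were 69 members between 2 and 2.1, and 86 transcripts with a ratio from 1.9 to 2 met every other condition. At day 14 the values just inside and outside were 1.4967 and 1.5007 at the upper limit and 0.6717 and 0.6681 at the lower. Of all eligible transcripts, 1057 (7.26%) met the day 3 conditions. At day 14, 541 of these were above 1.5, 80 were below 0.67 and 436 were the members.

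Most members were transcripts of low to moderate abundance. Their day 3 mean was under 10 TPM for 96, between 10 and 100 TPM for 289 and at least 100 TPM for 51, and the 10 most abundant held 26.6% of their summed day 3 TPM. The median of the group means was 6.46 TPM in the control, 10.4 at day 1, 19.1 at day 3 and 6.82 at day 14. In 10 members, some library had fewer than 10 reads.

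The largest ratio at day 3 was that of ENSRNOT00000117346.1, an RNA of 7527 bases. It had 1.17, 1.92 and 4.02 TPM in the control libraries and 8.23, 2.24 and 6.11 TPM at day 1. At day 3 it had 60.9, 14.2 and 64.5 TPM, and at day 14 6.77, 0.67 and 0.754 TPM. Replicate 2 was the lowest library at both day 1 and day 3, and the day 14 libraries fell on both sides of the control. Its ratio of 14.1 at day 3 thus rested mainly on replicates 1 and 3. At day 1 it was 1.09 higher than in the control on the log2 scale, with overlapping libraries, and did not pass the test (adjusted p = 0.776 from edgeR).

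The most abundant member at day 3 was ENSRNOT00000110905.1, an RNA of 8058 bases. It had 359.8, 472 and 519 TPM in the control and 1059, 757 and 971 TPM at day 1. At day 3 it had 1102, 953 and 1834 TPM, and at day 14 it had 479, 628 and 352 TPM. All day 1 libraries already lay above all control libraries, and replicates 1 and 3 of day 1 lay within the range of day 3. The difference between day 1 and control was 0.88 on the log2 scale and did not pass the test over all transcripts (adjusted p = 0.632 from edgeR, and 0.0915 from DESeq2). At day 14 the libraries overlapped those of the control.

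To measure the members in libraries that the rule had not used, the choice was repeated by the same rule without replicate 1, 2 or 3 of the control, day 3 and day 14, and the left-out libraries were then compared with each other. The replicate numbers only name the libraries. Without replicate 1, 398 transcripts were chosen. In the left-out libraries of day 3 and control, their median ratio was 2.6, and 288 (72.4%) had a ratio of at least 2, against 19.5% of the eligible transcripts. Without replicate 2, 584 were chosen, with a median left-out ratio of 1.96, and 282 (48.3%) reached 2, against 9.04%. Without replicate 3, 484 were chosen, with a median of 2.16, and 272 (56.2%) reached 2, against 7.66%. The median over all eligible transcripts was 1.3, 1.18 and 1.1 in the same pairs of libraries. Most transcripts chosen on the other libraries were thus higher at day 3 than in the control in the left-out pair as well, with a ratio above 1 in 93.7%, 97.4% and 92.1% of them, against 72.3%, 69.2% and 61.9% of the eligible transcripts. At a ratio of 2, the share ranged from 48.3% to 72.4%.

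The level at day 14 did not carry over in the same way. In the left-out libraries of day 14 and control, the median ratio of the chosen transcripts was 1.65 for replicate 1, 0.882 for replicate 2 and 0.631 for replicate 3. The window from 0.67 to 1.5 held 142 (35.7%), 288 (49.3%) and 200 (41.3%) of them, against 55.1%, 67.9% and 68.2% of the eligible transcripts. In the full set, the window around the control mean held 296 of the 436 members in replicate 1 of day 14 (65.6% of the eligible transcripts), 347 in replicate 2 (70.5%) and 282 in replicate 3 (75.5%). It held all 3 libraries for 133 members, against 48.9% of the eligible transcripts. Replicate 1 was the highest of the day 14 libraries for 325 members (52.2% of the eligible transcripts) and replicate 3 the lowest for 279 (47.4%). For 303 of the 436 members, at least 1 of the 3 libraries was outside the window. The rule put the mean of these libraries inside the same window, so the counts in the full set only describe the members. The day 14 libraries all lay below the day 3 libraries for 375 members, against 26.9% of the eligible transcripts, a contrast that the rule largely fixes. They lay wholly above the control for 12 members (17.3% of the eligible transcripts) and wholly below it for 9 (10.1%). The day 14 window of the rule largely fixes these counts as well, and nothing is read from them.

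**Figure D3:**
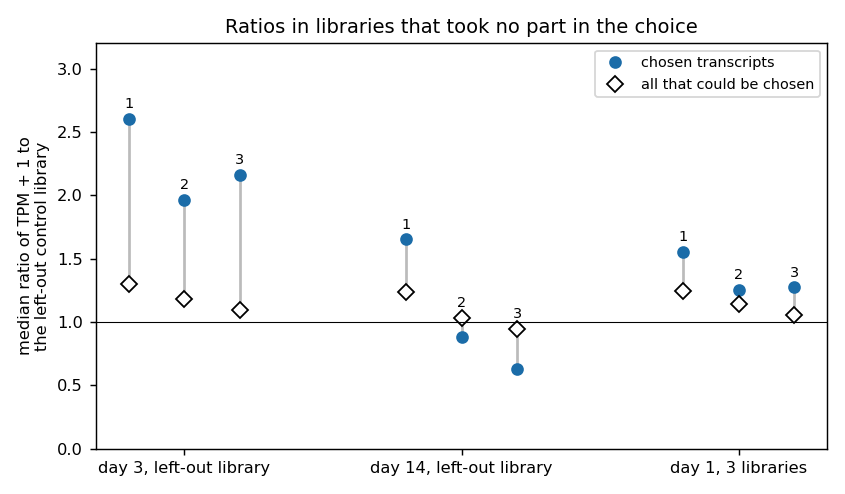
Median ratio of TPM + 1 to the left-out control library for transcripts chosen without that replicate of control, day 3 and day 14 (circles) and for all eligible transcripts (diamonds). The number above each pair is the left-out replicate, the day 3 and day 14 points use 1 left-out library each, and the day 1 points use the mean of 3 day 1 libraries. Circles lie between 1.96 and 2.6 at day 3 and between 0.631 and 1.65 at day 14.

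At day 1 the median level of the members lay between those of control and day 3. Their median ratio to control was 1.48, and 50 members had a ratio of at least 2, 161 were between 1.5 and 2, 224 were between 0.67 and 1.5, and 1 was below 0.67. A ratio of at least 2 was thus found in 11.5% of the members and in 3.3% of the eligible transcripts. All 3 day 1 libraries lay above the control libraries for 99 members (22.7%), against 12.9% of the eligible transcripts, and below them for 3, against 3.65%. Without replicate 2 of day 1, the median ratio was 1.59, 82 members had a ratio of at least 2 (5.92% of the eligible transcripts did), and both remaining libraries lay above the control for 197 (32.5% of the eligible transcripts). Without day 1 replicate 1, the median ratio was 1.39 and 35 members had a ratio of at least 2 (3.91%). Both remaining libraries then lay above the control for 152 (21.2%). Without day 1 replicate 3 the median ratio was 1.33, with 44 members at 2 or more (1.66%) and 108 above the control (14.6%). The control libraries moved these counts as well. Without control replicate 1, the median ratio was 1.35, 35 members had a ratio of at least 2 (1.88% of the eligible transcripts), and day 1 lay above the control for 108 (14.4%). Without control replicate 2, 85 members had a ratio of at least 2 (4.75%) and 178 lay above (19.2%). Without control replicate 3 these were 79 (7.14%) and 173 (29.1%). All 3 day 1 libraries lay below all 3 day 3 libraries for 293 members (67.2%), against 12.8% of the eligible transcripts, a contrast that uses the day 3 values of the rule and from which nothing is read. The same holds for the 14 members (3.21%) with a higher mean at day 1 than at day 3, against 45.9% of the eligible transcripts. The name "raised at day 3 only" thus does not describe day 1, on which the rule set no limit.

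The same control libraries were used in the rule and in the comparison of day 1 with control, so these counts are no independent evidence. In the left-out control libraries, the median ratio of the day 1 mean to the control was 1.55, 1.253 and 1.27 for the transcripts chosen without replicates 1, 2 and 3, against 1.247, 1.15 and 1.06 for the eligible transcripts. A ratio of at least 2 was found in 120 of them (30.2%, against 13.9% of the eligible transcripts), 76 (13.0%, against 5.42%) and 54 (11.2%, against 3.5%). Without replicate 2 of day 1, it was 1.64, 1.34 and 1.37, against 1.3, 1.19 and 1.09, and a ratio of at least 2 was found in 145 (17.2% of the eligible transcripts), 117 (8.09%) and 86 (4.78%). Compared with day 3, the chosen transcripts were closer to the eligible ones at day 1 in each of the 3 left-out comparisons. They were chosen for a high level at day 3 and without a limit at day 1. The day 3 values also came from 1 library and those of day 1 from a mean, so nothing is read from this.

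Per transcript, no difference between day 1 and control passed the test in the members. With edgeR's quasi-likelihood test on the estimated counts of all 12 libraries and Benjamini-Hochberg adjustment over 28016 transcripts, 0 of 436 members had an adjusted p under 0.05 (0.00357% of all tested transcripts did), and the smallest adjusted p of a member was 0.632. An unadjusted p under 0.05 was reached by 69 members (7.77% of all tested and 10.0% of the eligible transcripts), of which 64 were higher at day 1 (4.3%) and 5 lower. The median fitted log2 change of the members was 0.5, against 0.034 over all tested transcripts. Both edgeR and DESeq2 used the control libraries that took part in the choice. The contrasts of members with all transcripts in this paragraph are therefore no independent evidence. With DESeq2, 14 members passed, all higher at day 1 (of all transcripts with an adjusted p, 1.69% passed and 0.905% were higher), so the call at day 1 depended on the test. Without replicate 2 of day 1, edgeR called 0 members (0.112% of all). The count of members with an unadjusted p under 0.05 turned on single libraries. It was 37 without control replicate 1 (3.75% of all tested transcripts), 108 without control replicate 2 (7.21%) and 68 without control replicate 3 (9.13%). Without day 1 replicates 1, 2 and 3 it was 47 (6.52%), 102 (14.4%) and 49 (4.23%).

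Some members already had at least 2 times the control level at day 1. Of the members with a ratio of at least 2 at day 1, 32 (7.34% of all members) had all day 1 libraries above the control, against 1.7% of the eligible transcripts. This count, too, uses the control libraries of the rule. The most abundant of these at day 1 had 107, 159.9 and 259 TPM in the control, 1778, 687 and 658 TPM at day 1, 954, 689 and 723 TPM at day 3, and 174, 164 and 56.9 TPM at day 14. It was 2.45 higher at day 1 than in the control on the log2 scale, with an adjusted p of 0.632 from edgeR and of 0.000118 from DESeq2, and its day 1 and day 3 libraries overlapped. The largest ratio at day 1, 16.6, came from 1 library. That member had 139, 4.2 and 12.3 TPM at day 1 against 1.01, 4.27 and 1.27 TPM in the control, so that replicate 2 lay within the control range (adjusted p = 0.632 from edgeR). It then had 14.2, 33 and 22.4 TPM at day 3 and 5.61, 1.33 and 2.41 TPM at day 14.

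At the other end, 3 members (0.688%, against 3.65% of the eligible transcripts) had all day 1 libraries below the control before the higher levels of day 3. ENSRNOT00000027917.8, of 1504 bases, had 94.4, 83.6 and 102 TPM in the control and 57, 80.6 and 58.1 TPM at day 1. It had 331, 205 and 322 TPM at day 3 and 157, 96.2 and 91.6 TPM at day 14. The day 1 level was -0.67 relative to the control on the log2 scale and did not pass the test (adjusted p = 0.632 from edgeR). ENSRNOT00000028698.7, of 2358 bases, had 10.3, 8.15 and 9.33 TPM in the control and 7.06, 5.77 and 8.11 TPM at day 1. It had 22.5, 15.4 and 24.8 TPM at day 3 and 16.6, 8.63 and 11 TPM at day 14, and its day 1 difference of -0.59 on the log2 scale did not pass either (adjusted p = 0.632 from edgeR). In both transcripts the highest day 1 library lay just under the lowest control library, and replicate 2 was the lowest of the day 3 libraries.

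**Figure D4:**
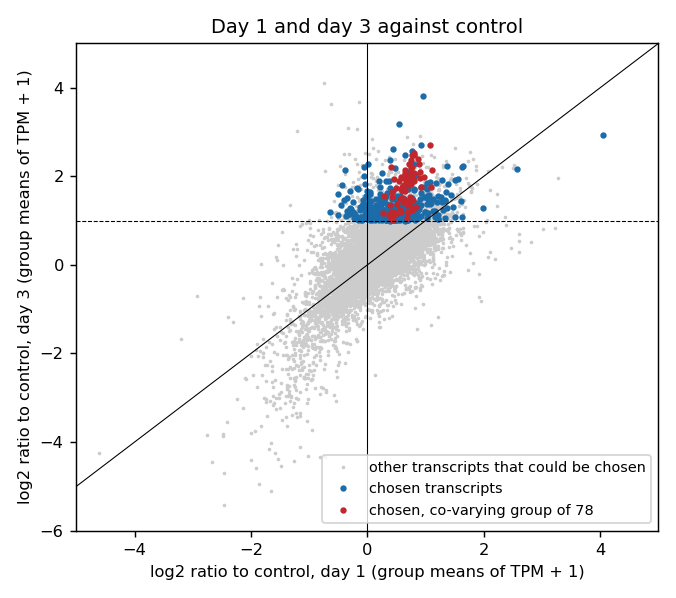
Log2 ratio of group means of TPM + 1 to control at day 1 (horizontal) and day 3 (vertical) for the 436 chosen transcripts and the other eligible ones. The dashed line is the ratio of 2 at day 3 that the rule required, and the diagonal marks equal ratios. Both axes share the control libraries, so the shape of the cloud is no measure of likeness. Of the 436 transcripts, 14 (3.21%) lie below the diagonal, against 45.9% of all eligible transcripts, a contrast fixed largely by the limit at day 3.

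Within the 436 transcripts, a group of 78 was set apart by correlation with 1 of them over the 12 libraries. It was formed by the member with the most partners at a Pearson correlation of at least 0.95 of log2(TPM + 1), which had 77. The median member had 1 such partner and 173 had none. The correlations run over the 12 libraries that chose the members and carry no p. The median level of the group was 2.93, 6.11 and 3.43 TPM in the control and 6.79, 6.34 and 8.94 TPM at day 1. It was 19.6, 18.2 and 18.3 TPM at day 3 and 4.53, 3.37 and 1.58 TPM at day 14. All 78 had their highest control value in replicate 2 and their lowest day 14 value in replicate 3, and 77 had all day 1 libraries below all day 3 libraries. These counts restate the choice of the group, since its defining member has the same pattern, and nothing is read from them. Replicate 2 of the control lay close to replicate 2 of day 1 in this median.

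In the co-varying group the median ratio was 1.6 at day 1, 3.42 at day 3 and 0.802 at day 14, and 72 of the 78 had a ratio below 1 at day 14, as did 195 of all 436 members and 42.3% of the eligible transcripts. In the other 358 members the medians were 1.42, 2.34 and 1.13. These values describe the group and largely restate how it was formed. Of the transcripts that could have been chosen, 121 had a correlation of at least 0.95 with the same member, and 43 of these were not members. Of the 43, 28 had a day 14 ratio below 0.67 and 17 had a day 3 ratio below 2, with 2 in both counts. The limits of the rule thus divided the transcripts that correlated with this member. Correlation does not measure the size of a change, and within the group the day 3 ratio ran from 2.03 to 6.54. With a library left out in turn, between 65 and 85 members had this correlation with the same member, of which between 64 and 78 were among the 78. At a correlation of at least 0.9 there were 114, with all 78 among them. The median length was 2714 bases in the group and 2798 bases in the other members. Whether the transcripts belong to a shared process is not known from these files.

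**Figure D5:**
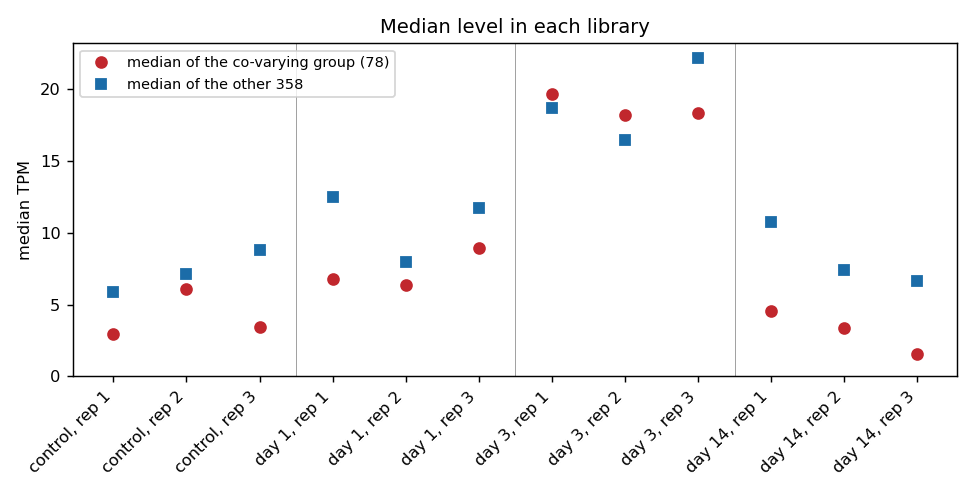
Median TPM of the co-varying group of 78 transcripts (circles) and of the other 358 members (squares) in each library. The circles are at 18.2 to 19.6 TPM in the 3 day 3 libraries and fall to 1.58 TPM in replicate 3 of day 14, below every control library, where the squares are at 6.66 TPM.

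Over all 436 members, the highest day 3 library was 1.41 times the lowest in the median, against 1.31 over the eligible transcripts. It was at least 2 times the lowest in 57 members (13.1%), near the 11.3% of the eligible transcripts, and the largest such spread was 4.52 times. A ratio of at least 2 to the control mean was reached by 382 members in replicate 1 of day 3, 280 in replicate 2 and 392 in replicate 3. The rule required a mean ratio of at least 2 at day 3 and so largely fixed these counts, from which nothing is read. The median member was lower in replicate 2 (2.21 times the control mean, against 2.56 and 2.61). That library also had a higher share of the 100 most abundant control transcripts (31.4%, against 29.7% and 27.7%). The part of that share in the lower level was not tested.

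The members were somewhat longer than the transcripts they were chosen from. Their median length was 2782 bases (quartiles 1897 and 3992), against 2426 bases (1590 and 3641) for all eligible transcripts, and 4.82% of the members and 8.69% of the eligible transcripts were shorter than 1000 bases. The shortest had 240 and the longest 14127 bases. The fragment length of the libraries, read from the difference between length and effective length in 9009 eligible transcripts of at least 2000 bases, was between 197 and 206 bases in the control and between 204 and 208 bases at day 3, with overlapping ranges.

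For comparison, 291 eligible transcripts had a ratio of at least 2 and no overlap with control at both day 3 and day 14. Their median ratio was 1.72 at day 1 and 2.499 at day 3, against 1.48 and 2.44 for the members, and their median length was 3416 bases. Day 1 libraries lay wholly above the control for 34.4% of them and for 22.7% of the members. These differences were not tested, since transcripts are not replicates and both sets were chosen with the same control libraries.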

How the data were processed

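The authors sequenced polyadenylated RNA with a strand-specific library kit. Transcripts were quantified by the authors with Salmon (version not given in the sources used here) on an index of Ensembl transcripts of mRatBN7.2, per the paper's methods, while the submitters' processing notes name rn6, so no coordinates are given. The authors deposited 1 table per library with estimated counts, which are not normalized, TPM, and the length and effective length of each of 46726 transcripts. Of these identifiers, 0 were found in a RefSeq table of 32100 Rattus rattus genes, so gene lists and marker lists fixed for this work could not be used.

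Members were chosen on deposited TPM by the rule in the text with Python 3.11.15 and pandas 2.3.3. Estimated counts were rounded, and day 1 was compared with control by the quasi-likelihood test of edgeR (version 4.0.16 under R 4.3.3, low counts removed by filterByExpr, TMM factors, legacy method with robust dispersions), with the 12 libraries in 1 fit. The alternative was DESeq2 1.42.0, which the submitters also name. No pair of libraries within a group agreed within sampling noise (chi-square per degree of freedom of at least 40.5 over 12 pairs). The study states biological replicates, but the labels name no animals, so p-values may measure partly technical spread, and 3 libraries per group limit precision. The members, lists and tests were chosen with earlier results of these data known. Transcripts given by identifier are the members with the largest ratio and the largest mean TPM at day 3, and the 2 with the lowest ratio at day 1 among those with day 1 wholly below control. The size of the co-varying group was a planned result. Other single members and the levels within that group were described after their values were seen.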

Additional observations from a re-analysis of the deposited data

Results flagged for a closer look

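In ENSRNOT00000027917.8 and ENSRNOT00000028698.7, all 3 day 1 libraries lay below and all 3 day 3 libraries above the 3 control libraries, so that the differences at these time points pointed in opposite directions. The ratio to control at day 1 was 0.702 for the first and 0.779 for the second. These transcripts were picked for their low day 1 ratio among the 3 members with day 1 wholly below the control. Such members were 0.688% of all members, against 3.65% of the eligible transcripts. The difference between the time points was not tested, since the rule fixed the direction at day 3. The group of 3 libraries is too small to look for single outlying libraries by a formal rule.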

How the results depend on the processing

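The number of members, 436, followed the limits of the rule. It was 1387 with a day 3 ratio of at least 1.5, 105 with at least 3, 687 with a day 14 window of 0.5 to 2 and 229 with the narrower window that starts at 0.8. The other alternatives on the rule gave between 341 (TPM floor of 10) and 575 (without control replicate 3), and leaving out each control, day 3 and day 14 library in turn gave between 357 and 575. Of the 436, 357 were also chosen after division of TPM by TMM factors (378 in all), and 283 without control replicate 1 (357 in all).

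At day 1 against control, edgeR called 0 members and 1 of all transcripts, and DESeq2 called 14 and 471. The cause of this gap was not tested. With at least 10 counts in every library, only the compared groups in the fit, or a replicate block, 0 of all transcripts passed (1845, 1257 and 1711 with an unadjusted p under 0.05). Leaving out 1 library gave between 3 and 33 for all transcripts, the 33 without day 1 replicate 2, and 0 members each time. With the replicate block, 0 members passed and 55 had an unadjusted p under 0.05. The numbers were not taken as a pairing, since 1 of 18 same-number pairs had a correlation of deviations over 0.1 (median -0.013).

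The median log2 ratio of the members at day 1, 0.57, stayed between 0.41 and 0.67, and the mean of the left-out medians at day 3, 1.16, between 1.14 and 1.18. At day 1 the direction of the 4 identified transcripts was kept in all 14 alternatives, and each missed the threshold in every one of them. The leave-one-out and r of 0.9 alternatives for the co-varying group and those for day 14 were added after seeing the data. So were, without single control libraries, the day 1 counts of ratios of at least 2 and of libraries above the control. The day 1 tests and median ratios without single libraries were planned.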
